A study of Mus musculus with 16 samples.

Results

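Osteoprotegerin (Tnfrsf11b), RANKL (Tnfsf11) and macrophage colony-stimulating factor (M-CSF, gene Csf1) were examined in trabecular osteoblasts (TOs) from fetal mice with and without Pthrp. The 3 genes were taken by symbol: every array probe annotated to Tnfrsf11b, Tnfsf11 or Csf1 was used, and each gene had 1 probe among the 25697 probes and 16593 named genes of the array. All 3 passed the filter on low values, which kept probes detected (detection p-value under 0.05) on at least 2 of 16 arrays and left 15279 probes for 10438 genes. In GRCm38.p6 coordinates Tnfrsf11b lies on chromosome 15 (54250619 to 54278484), Tnfsf11 on chromosome 14 (78277446 to 78308043) and Csf1 on chromosome 3 (107741048 to 107760469).

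RANKL is a cytokine of osteoblast-lineage cells that binds its receptor RANK on osteoclast precursors and drives them to become bone-resorbing osteoclasts. Osteoprotegerin is a secreted decoy receptor that binds RANKL and keeps it from RANK, and M-CSF supports the survival and proliferation of the macrophage-lineage cells from which osteoclasts arise. Parathyroid hormone and PTHrP, acting through the shared receptor Pth1r, are known to change the expression of RANKL and osteoprotegerin in osteoblasts.

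The 16 arrays covered 8 conditions with 2 arrays each: Pthrp-/- and Pthrp+/+ TOs, each at 0g and at 1g, and each with PTHrP1-36 (treated) or with medium changes only (untreated). The cells were C57BL/6, grew out of bone fragments of fetuses near birth (femur in the study's methods, both femur and tibia in the labels), and had been passaged and frozen before use. They were attached to microcarriers and kept for 6 days either in a rotating chamber used to model microgravity (0g) or in agarose-coated plasticware (1g), so that gravity cannot be told apart from chamber and rotation. Treated cells received 10 nM PTHrP1-36 for 2 h each day, then fresh medium, against medium changes in untreated cells. By the study's methods the medium at 0g and 1g was a differentiation medium with ascorbic acid, glycerophosphate and dexamethasone. Whether duplicates were separate animals is not given, and p-values therefore describe only how far these arrays spread, which may be technical.

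Median intensity per array ran from 60.6 to 70.3, 12161 to 13560 probes were detected per array, and duplicate arrays correlated at 0.989 to 0.997. No probe was annotated to Pthlh, the mouse gene for PTHrP, so the genotype itself could not be checked on the array. The gravity effects of the genotypes ran against each other across the array: over the 15279 probes the 0g minus 1g change in Pthrp-/- TOs correlated at -0.34 (untreated) and -0.25 (treated) with that in Pthrp+/+ TOs, and 477 of 558 and 208 of 251 genes that passed the test in both genotypes moved in opposite directions. Genotype differences of osteoprotegerin, RANKL and Csf1 are therefore also given below with the 0g and 1g labels of the Pthrp-/- arrays exchanged. This alternative was chosen after seeing the data. Results for gene lists, cell-type markers, other named genes and osteoprotegerin relative to RANKL are given with the original labels only. The genotypes also differed in macrophage markers. The summed intensity of the 22 tested markers was 681 to 897 in the 8 Pthrp-/- arrays (5 to 7 markers detected) and 54705 to 89965 in the 8 Pthrp+/+ arrays (18 to 22 detected), with C1qa, C1qb, C1qc, Adgre1 and Ptprc undetected on every Pthrp-/- array. The summed intensity of the 12 tested osteoblast markers overlapped between genotypes, at 20612 to 27222 in the 8 Pthrp-/- arrays and 21683 to 29755 in the 8 Pthrp+/+ arrays. At 1g the sums did not overlap in untreated (20612 to 21241 in Pthrp-/-, 29729 to 29755 in Pthrp+/+ TOs) or treated cells (26424 to 27222 in Pthrp-/-, 28471 to 28610 in Pthrp+/+ TOs). Dmp1 and Dlx5 were undetected on all 16 arrays, Postn on every Pthrp-/- array and on the Pthrp+/+ arrays at 0g, and Ibsp on every Pthrp-/- array. Markers of other cell types were counted between genotypes in untreated TOs at 1g, where 30.5% of all genes were higher and 22.0% lower in Pthrp-/- TOs. Of 4 tested adipocyte markers 0 were higher and 4 lower, of 6 chondrocyte markers 2 and 0, and of 4 endothelial markers 2 and 1. The part of all these markers in the results below was not tested, and in bulk RNA fewer cells of a type cannot be told apart from less RNA per cell.

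All 3 genes passed the test between 0g and 1g in untreated Pthrp+/+ TOs (adjusted p under 0.05 in limma), where 26.4% of the genes tested passed (13.0% higher and 13.4% lower). At 0g osteoprotegerin and Csf1 were higher and RANKL was lower. In treated Pthrp+/+ TOs 1 of the 3, RANKL, passed (7.88% of genes). In Pthrp-/- TOs 0 of the 3 passed at 0g against 1g, either untreated (9.31% of genes) or treated (8.78%), although 1 gene in each comparison had an unadjusted p under 0.05 (RANKL in untreated, osteoprotegerin in treated cells), and osteoprotegerin in treated cells passed with a variance trend (adjusted p = 0.0150). Between genotypes all 3 passed at 1g, with osteoprotegerin and Csf1 higher and RANKL lower in Pthrp-/- TOs, but there 52.5% of all genes passed in untreated (30.5% higher and 22.0% lower) and 50.9% in treated cells, so the count alone does not set the 3 genes apart. At 0g 2 of the 3 passed between genotypes in untreated (32.3% of genes) and in treated cells (33.8%). PTHrP1-36 gave 1 passing gene, osteoprotegerin, in Pthrp-/- TOs at 0g (2.15% of genes) and in Pthrp+/+ TOs at 0g (8.03%, 4.98% higher and 3.05% lower), and 0 of 3 at 1g in Pthrp-/- (3.25%) or Pthrp+/+ TOs (0.719%), where 0 of 3 had an unadjusted p under 0.05.

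**Figure D1:**
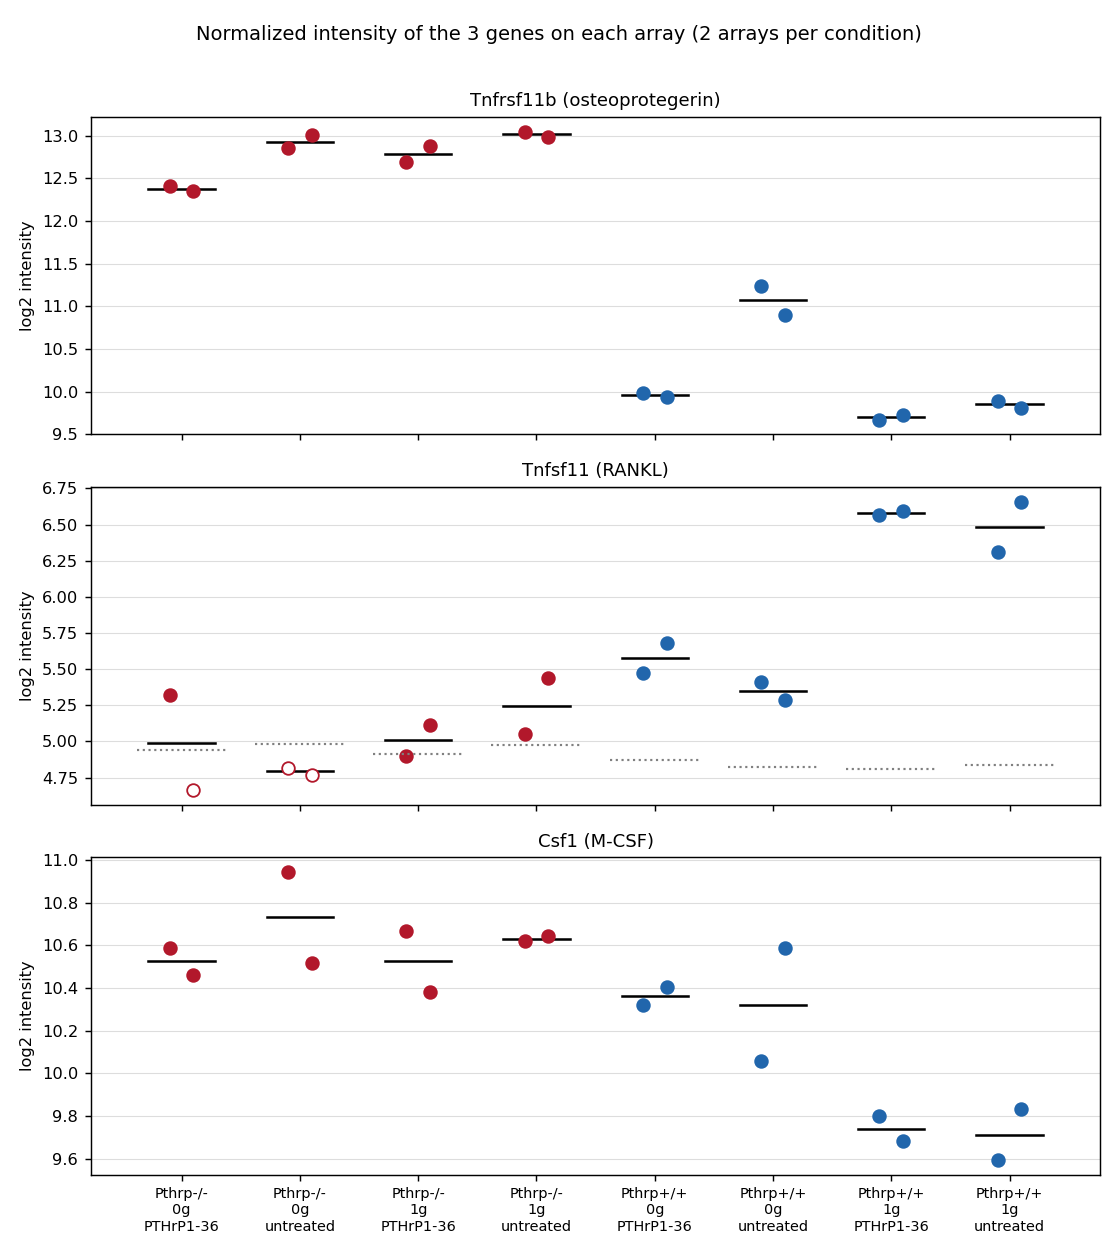
Normalised log2 intensity of Tnfrsf11b, Tnfsf11 and Csf1 on each of the 16 arrays, by condition, Pthrp-/- in red and Pthrp+/+ in blue; black bars are the means of 2 arrays, open circles are arrays where the probe was not detected and the dotted line in the Tnfsf11 panel is the detection limit. Tnfrsf11b lies at 12.35 or above on all Pthrp-/- arrays and at 11.24 or below on all Pthrp+/+ arrays, and Tnfsf11 is above 6 only in Pthrp+/+ TOs at 1g.

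The start regions of RANKL and Csf1, 300 bases each (250 before to 50 after the RefSeq start, GRCm38.p6, minus strand, printed 5′ to 3′), are shown because only these 2 members had a window in the sequences used. The 2 genes moved in opposite directions between genotypes at 1g and with gravity in untreated Pthrp+/+ TOs. Capitals mark matches on either strand to an NF-kappaB-like motif (GGG, any 5 bases, CC), a GC box (GGGCGG) and a TATA box core (TATAA), with overlaps printed as 1 run:
Tnfsf11 (chr14:78307994-78308293): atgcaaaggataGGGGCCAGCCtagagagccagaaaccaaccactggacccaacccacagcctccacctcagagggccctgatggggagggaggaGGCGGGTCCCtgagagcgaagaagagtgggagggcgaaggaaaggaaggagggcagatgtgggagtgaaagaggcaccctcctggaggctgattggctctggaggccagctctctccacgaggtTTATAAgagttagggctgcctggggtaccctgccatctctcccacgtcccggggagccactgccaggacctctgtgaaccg
Csf1 (chr3:107760420-107760719): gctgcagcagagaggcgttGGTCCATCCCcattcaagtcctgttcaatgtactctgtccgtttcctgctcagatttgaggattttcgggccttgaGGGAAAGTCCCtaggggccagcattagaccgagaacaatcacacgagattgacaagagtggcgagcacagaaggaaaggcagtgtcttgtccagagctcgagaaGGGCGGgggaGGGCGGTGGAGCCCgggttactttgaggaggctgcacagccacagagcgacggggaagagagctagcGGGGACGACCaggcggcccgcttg
On both strands, the Tnfsf11 window holds TATAA from base -30 (and, on the other strand, from -31) and the NF-kappaB-like motif from bases -238 and -155, and the Csf1 window holds GGGCGG from bases -51 and -41 and the NF-kappaB-like motif from bases -231, -155, -154, -37 and 26, the one from -37 overlapping the second GGGCGG. Of 32851 RefSeq windows of the same length 24.9% hold TATAA, 50.8% hold the NF-kappaB-like motif and 35.7% hold GGGCGG. Neither window holds TGACGTCA, TGANTCA or ACCACA, which 1.79%, 7.81% and 16.8% of the windows hold. These letter matches are descriptions and show no binding. Tnfrsf11b is named without a window.

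Osteoprotegerin was the member with the widest range. Its 8 condition means spanned 3.32 log2 units, or 9.98-fold, and it was detected on all 16 arrays. In untreated Pthrp+/+ TOs the log2 intensity was 11.24 and 10.89 at 0g, against 9.89 and 9.81 at 1g. Both 0g arrays lay above both 1g arrays. The difference of 1.22 (95% interval 0.96 to 1.48, adjusted p = 7.8e-06), a 2.33-fold higher level at 0g, placed osteoprotegerin 93rd among the 10438 genes by increase. In treated Pthrp+/+ TOs the arrays read 9.98 and 9.93 at 0g and 9.67 and 9.73 at 1g, a difference of 0.26 (95% interval -0.01 to 0.52) that did not pass (adjusted p = 0.282).

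In Pthrp-/- TOs no gravity difference in osteoprotegerin passed. Among the conditions, its highest mean was that of untreated Pthrp-/- TOs at 1g. Untreated Pthrp-/- TOs gave 12.85 and 13.00 at 0g and 13.05 and 12.99 at 1g, with overlapping arrays and a difference of -0.09 (95% interval -0.35 to 0.18, adjusted p = 0.725). Treated Pthrp-/- TOs gave 12.41 and 12.35 at 0g and 12.69 and 12.88 at 1g. These arrays did not overlap, but the difference of -0.41 (95% interval -0.67 to -0.14) missed the threshold (adjusted p = 0.0588). The gravity effect in Pthrp-/- minus that in Pthrp+/+ TOs was -1.31 (SE 0.17, adjusted p = 0.000101) in untreated cells, where 25.8% of genes passed this test. It was -1.13 (adjusted p = 0.000759) with the Pthrp-/- labels exchanged. In treated cells it was -0.66 (SE 0.17, adjusted p = 0.0244; 12.1% of genes passed), a call that was lost without either array of treated Pthrp+/+ TOs at 0g or 1g, either array of treated Pthrp-/- TOs at 0g, or replicate 2 of treated Pthrp-/- TOs at 1g (adjusted p 0.0580 to 0.104), and that became 0.15 (adjusted p = 0.718) with the labels exchanged.

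Osteoprotegerin was higher in Pthrp-/- TOs in all 4 genotype comparisons, and no Pthrp-/- array overlapped a Pthrp+/+ array. At 1g the difference was 3.17 in untreated cells (9.00-fold, SE 0.12, adjusted p = 8.5e-11) and 3.09 in treated cells (8.51-fold, adjusted p = 1.1e-10). It ranked 27th and 35th among the 10438 genes by increase. At 0g, where the untreated Pthrp+/+ level was higher, the difference was 1.86 in untreated cells (3.63-fold, adjusted p = 5.1e-08) and 2.42 in treated cells (5.37-fold, adjusted p = 2.6e-09). With the Pthrp-/- labels exchanged the 4 differences were 3.08, 2.68, 1.95 and 2.83, so that all 4 kept their direction. For each gene the gravity and genotype comparisons in untreated cells share the untreated Pthrp+/+ arrays at 1g. An error in those arrays would move both differences in the same direction, so a shared direction in these comparisons is not independent evidence.

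PTHrP1-36 lowered osteoprotegerin in Pthrp+/+ TOs at 0g. Treated cells gave 9.98 and 9.93, against 11.24 and 10.89 in untreated cells, a difference of -1.11 (95% interval -1.38 to -0.85, adjusted p = 0.000187), or 2.17-fold lower with treatment. Osteoprotegerin was the 6th of 10438 genes by decrease. This comparison shares the untreated Pthrp+/+ arrays at 0g (SD 0.25) with the gravity comparison. An error in those arrays would move the gravity and treatment differences in opposite directions, so the rise and the fall are not independent. The treated 0g level lay 0.11 above that of untreated Pthrp+/+ TOs at 1g, which is within the 95% interval of that difference. At 1g treated Pthrp+/+ TOs gave 9.67 and 9.73 and untreated ones 9.89 and 9.81, a difference of -0.15 (adjusted p = 0.741), and the treatment effect at 0g minus that at 1g was -0.96 (SE 0.17, adjusted p = 0.00921; 3.17% of genes passed). That call was narrowly lost without replicate 2 of treated Pthrp+/+ TOs at 0g (adjusted p = 0.0509) or at 1g (adjusted p = 0.0511). In Pthrp-/- TOs at 0g the treatment difference was -0.55 (0.683 of the untreated level, adjusted p = 0.0382), and it no longer passed when any array was left out other than those of treated Pthrp-/- TOs at 1g and untreated Pthrp+/+ TOs at 0g (adjusted p 0.0517 to 0.185). At 1g it was -0.23 (adjusted p = 0.374). The treatment effect in Pthrp-/- minus that in Pthrp+/+ TOs was 0.56 at 0g (adjusted p = 0.122) and -0.08 at 1g (adjusted p = 0.866), so a difference in response between genotypes was not shown.

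RANKL was dim on these arrays. It was detected on 13 of 16 arrays, on neither array of untreated Pthrp-/- TOs at 0g and not on replicate 2 of treated Pthrp-/- TOs at 0g, and the raw intensity of its probe was 59.3 to 160. In untreated Pthrp+/+ TOs the log2 intensity was 5.41 and 5.28 at 0g, against 6.31 and 6.66 at 1g, and in treated Pthrp+/+ TOs 5.47 and 5.68 at 0g, against 6.57 and 6.59 at 1g. In both cases the 0g arrays lay below the 1g arrays without overlap. The untreated difference was -1.14 (SE 0.20, adjusted p = 0.000757), 2.20-fold lower at 0g, and the treated difference was -1.0 (SE 0.20, adjusted p = 0.00599), 2.00-fold lower at 0g. Both differences were -0.22 with the authors' normalised values. The treated call was lost without replicate 1 of treated Pthrp+/+ TOs at 0g (-0.90, adjusted p = 0.0755) or replicate 2 at 1g (-0.99, adjusted p = 0.0517). PTHrP1-36 did not change RANKL detectably: the treatment difference was -0.24 (adjusted p = 0.592) at 1g in Pthrp-/- TOs, and 0.23 (adjusted p = 0.559) at 0g and 0.09 (adjusted p = 0.925) at 1g in Pthrp+/+ TOs. In Pthrp-/- TOs at 0g no size is given, since RANKL was detected on 1 of 2 treated and 0 of 2 untreated arrays (adjusted p of the measured values 0.663).

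At 1g RANKL was lower in Pthrp-/- TOs. Untreated Pthrp-/- TOs gave 5.05 and 5.44, against 6.31 and 6.66 in untreated Pthrp+/+ TOs (-1.24, 2.37-fold lower, adjusted p = 0.00014), and treated Pthrp-/- TOs gave 4.90 and 5.12, against 6.57 and 6.59 in treated Pthrp+/+ TOs (-1.57, 2.97-fold lower, adjusted p = 1.6e-05). With the authors' normalised values these differences were -0.24 and -0.30, so their sizes depend on the scaling of this dim probe. The 2 treated Pthrp-/- arrays read close above their detection limits of 4.89 and 4.93. The Pthrp-/- arrays at 0g stood at or below the detection limit, which ran from 4.79 to 5.06 on the 16 arrays, except replicate 1 of treated cells. They read 4.82 and 4.77 in untreated and 5.32 and 4.66 in treated cells. Compared with untreated Pthrp+/+ TOs at 0g, RANKL was at least 1.29-fold lower in untreated Pthrp-/- TOs, where the limit stands in for the undetected level (adjusted p of the measured values 0.0475). That call was lost under 5 of the processing alternatives and without any of 10 of the arrays (adjusted p 0.0540 to 0.193): both of untreated Pthrp-/- TOs at 0g, treated Pthrp-/- TOs at 1g, and treated and untreated Pthrp+/+ TOs at 0g, and treated Pthrp+/+ TOs at 1g. In treated cells at 0g the difference was -0.59 (1.5-fold lower, adjusted p = 0.0352), lost without replicate 2 of treated Pthrp-/- TOs (-0.26, adjusted p = 0.365) or either array of treated Pthrp+/+ TOs (adjusted p 0.0638 and 0.197). With the Pthrp-/- labels exchanged, RANKL was at least 2.84-fold lower in untreated Pthrp-/- TOs against Pthrp+/+ TOs at 1g, and the other genotype differences were -1.59 in treated cells at 1g (1 of 2 Pthrp-/- arrays detected), and -0.10 (adjusted p = 0.733) in untreated and -0.57 (adjusted p = 0.0324) in treated cells at 0g.

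Within Pthrp-/- TOs no gravity difference in RANKL passed. In untreated cells the 1g mean lay 1.2-fold above the detection limit of the 0g arrays (adjusted p of the measured values 0.192), which does not show a fall. In treated cells, with 1 of the 2 0g arrays detected, the difference was -0.02 (95% interval -0.44 to 0.41, adjusted p = 0.977). The gravity effect in Pthrp-/- minus that in Pthrp+/+ TOs was 0.69 (SE 0.28, adjusted p = 0.0910) in untreated and 0.98 (SE 0.28, adjusted p = 0.0361) in treated cells, both from measured values that include the undetected Pthrp-/- arrays at 0g. At 1g the Pthrp-/- arrays already read 4.90 to 5.44, against detection limits of 4.89 to 5.02. A fall of the size seen in Pthrp+/+ TOs could not be measured from there, so neither value shows a different gravity effect. The treated value was lost without replicate 1 of treated Pthrp-/- TOs at 0g (0.66, adjusted p = 0.140) or any array of treated Pthrp-/- TOs at 1g or of treated Pthrp+/+ TOs (adjusted p 0.0566 to 0.132).

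Csf1 was detected on all 16 arrays, and its condition means spanned 1.02 log2 units, or 2.03-fold. In untreated Pthrp+/+ TOs it read 10.06 and 10.59 at 0g, against 9.59 and 9.83 at 1g. The arrays did not overlap. The difference of 0.61 (1.52-fold, SE 0.18, adjusted p = 0.0241) was lost without replicate 2 at 0g (0.34, adjusted p = 0.228) or replicate 1 at 1g (0.49, adjusted p = 0.173). In treated Pthrp+/+ TOs it read 10.32 and 10.41 at 0g, against 9.80 and 9.68 at 1g, a difference of 0.62 (1.54-fold) that just missed the threshold (adjusted p = 0.0533). In Pthrp-/- TOs the gravity differences were 0.10 (adjusted p = 0.794) in untreated and -0.00 (95% interval -0.39 to 0.39) in treated cells.

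Csf1 was higher in Pthrp-/- TOs at 1g, in opposite direction to RANKL. Untreated Pthrp-/- TOs gave 10.62 and 10.64, against 9.59 and 9.83 in untreated Pthrp+/+ TOs (0.92, 1.89-fold, adjusted p = 0.000765), and treated Pthrp-/- TOs gave 10.67 and 10.38, against 9.80 and 9.68 in treated Pthrp+/+ TOs (0.78, 1.72-fold, adjusted p = 0.00248). At 0g the genotype difference was 0.41 (adjusted p = 0.0991) in untreated cells (10.94 and 10.52 in Pthrp-/-, 10.06 and 10.59 in Pthrp+/+ TOs) and 0.16 (adjusted p = 0.540) in treated cells (10.59 and 10.46 in Pthrp-/-, 10.32 and 10.41 in Pthrp+/+ TOs). With the Pthrp-/- labels exchanged the 4 differences were 1.02, 0.78, 0.31 and 0.16. None of the 4 treatment differences, -0.21 to 0.04, passed (adjusted p 0.604 to 0.980), and the gravity effect did not differ detectably between genotypes (-0.51, adjusted p = 0.171 in untreated; -0.62, adjusted p = 0.144 in treated cells).

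**Figure D2:**
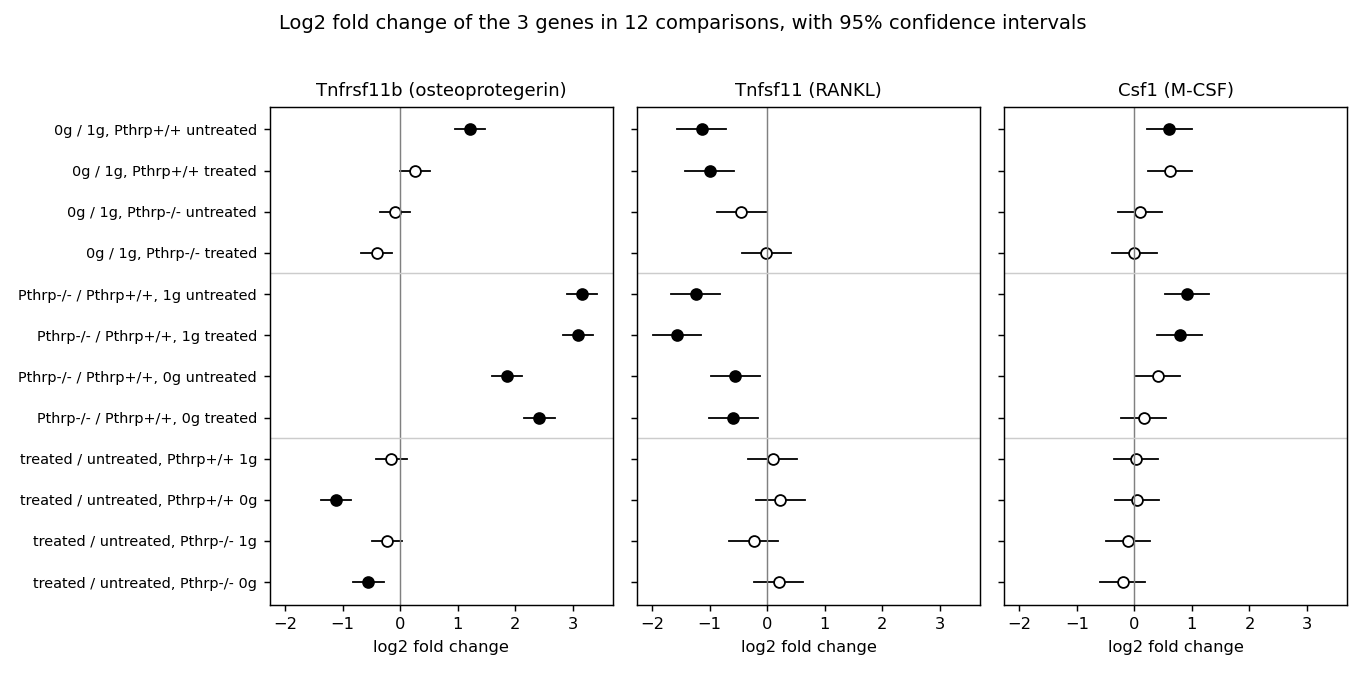
Log2 difference with its 95% interval for each of 3 genes (Tnfrsf11b, Tnfsf11 and Csf1) in 12 comparisons: gravity (0g minus 1g), genotype (Pthrp-/- minus Pthrp+/+) and treatment (treated minus untreated); filled symbols passed at adjusted p under 0.05, and Tnfsf11 differences with untreated Pthrp-/- TOs at 0g, where it was undetected, are drawn at the measured value. The largest differences are those of Tnfrsf11b between genotypes, at 1.86 to 3.17, and the only treatment differences that passed are those of Tnfrsf11b at 0g.

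By level, the 4 Pthrp-/- means of osteoprotegerin and Csf1 lay above the 4 Pthrp+/+ means, and those of RANKL below, but the split between genotypes exceeded its 95% interval only for osteoprotegerin (1.31 between the neighbouring conditions). For RANKL the Pthrp-/- and Pthrp+/+ neighbours differed by 0.10 with overlapping arrays, and for Csf1 by 0.16. Of the 7 neighbouring pairs in each order, 4 for osteoprotegerin, 6 for RANKL and 6 for Csf1 differed by no more than their 95% interval.

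Osteoprotegerin and RANKL moved apart at 0g in Pthrp+/+ TOs. Levels of different probes cannot be compared, so only the change in their log2 difference is meaningful. The difference (osteoprotegerin minus RANKL, mean ± SD, n = 2) was 5.72 ± 0.16 at 0g and 3.36 ± 0.30 at 1g in untreated Pthrp+/+ TOs, a change of 2.36, or 5.13-fold. In treated Pthrp+/+ TOs it was 4.38 ± 0.18 at 0g and 3.12 ± 0.03 at 1g, a change of 1.26. The treated and untreated 0g arrays did not overlap in this measure. Between genotypes the difference changed by 4.41 (21.3-fold) in untreated and by 4.66 (25.3-fold) in treated cells at 1g, and with PTHrP1-36 by -1.34 in Pthrp+/+ TOs at 0g. These sizes depend on the scaling of the dim RANKL probe: with the authors' normalised values they were 1.37 (2.59-fold) and 0.45 for gravity in untreated and treated Pthrp+/+ TOs, 3.42 (10.7-fold) and 3.37 (10.3-fold) for genotype at 1g, and -1.12 for treatment. No value is given for Pthrp-/- TOs at 0g, where RANKL was undetected on 3 of 4 arrays. No test was run on the ratio.

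Genes whose 8 condition means were most like each member were ranked by Pearson r over the means of the 3549 tested probes that spanned at least 1 log2 unit. For osteoprotegerin they were Myo1c (0.997), Tmbim1 (0.997), Enpp5 (0.996), Cspg4 (0.994) and Arhgef18 (0.993), for RANKL Nampt (0.994), Reep1 (0.992), Fam162a (0.991), Rbm47 (0.991) and Slc2a1 (0.990), and for Csf1 Tbc1d2 (0.989), Ahi1 (0.982), Rapgef3 (0.981), Ehd1 (0.980) and Dcxr (0.979). These patterns are common: 953, 325 and 378 probes had r over 0.9 with osteoprotegerin, RANKL and Csf1.

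Other genes of the pathway are described over lists chosen with earlier results of these data known, by how many tested genes passed in each direction, beside the median of all genes (0.04 for gravity in untreated Pthrp+/+ TOs, 0.12 for genotype in untreated TOs at 1g). Of all genes, 13.0% were higher and 13.4% lower in that gravity comparison, and 30.5% and 22.0% in that genotype comparison. With PTHrP1-36 in Pthrp+/+ TOs at 0g, 4.98% were higher and 3.05% lower. List results for Pthrp-/- TOs are those of untreated cells at 1g unless stated. The gravity comparison shares its 1g arrays with the genotype comparison and its 0g arrays with the treatment comparison. The limits given for osteoprotegerin therefore hold for the lists too. Of 21 tested osteoclastogenic factors, which include RANKL and Csf1, 5 were higher and 10 lower at 0g (median -0.19, or -0.12 with undetected genes at their bound), and 3 higher and 13 lower in Pthrp-/- TOs (median -0.98, or -0.70). The 5 higher calls at 0g fell to 3, 2 and 3 without replicate 2 of untreated Pthrp+/+ TOs at 0g, and replicates 1 and 2 at 1g. Among them Ccl2 (1.16) and Ccl7 (0.66) were lower in Pthrp-/- TOs (-1.35 and -0.98), and Il11 (0.96) was higher (1.21). The 4 factors described next were picked by size of change over both comparisons and were lower in both. Ccl9, a chemokine, had -0.88 at 0g and -5.97 in Pthrp-/- TOs, and Tnf, an inflammatory cytokine, had -1.03 for gravity and at least a 4.15-fold lower level in Pthrp-/- TOs. Cxcl12, a chemokine that attracts osteoclast precursors, had -2.04 at 0g and -1.67 in Pthrp-/- TOs at 1g, on all 3 of its probes in the same direction, and Mmp13, a collagenase of osteoblasts, had -0.85 and -1.91, with 1 of its 3 probes going the other way without passing. Between genotypes at 0g Cxcl12 was instead higher in Pthrp-/- TOs, by 1.23 in untreated (adjusted p = 2.2e-06) and 0.34 in treated cells (adjusted p = 0.0402). Within Pthrp-/- TOs it was higher at 0g than at 1g, by 0.86 in untreated (adjusted p = 0.000408) and 0.95 in treated cells (adjusted p = 0.000126). With PTHrP1-36 in Pthrp+/+ TOs at 0g, 3 factors were higher and 1 lower, Cxcl12 among the higher ones by 0.67 (adjusted p = 0.00373), but of the 3 higher calls 0 were left without replicate 1 of the treated arrays and 1 without replicate 2 of the untreated arrays. Il34, the second ligand of the M-CSF receptor, did not pass for gravity (-0.10) or for genotype at 1g in untreated cells (0.45, adjusted p = 0.0658), but passed in treated cells at 1g (0.88, adjusted p = 0.00186) and 0g (1.33, adjusted p = 0.000119). No probe was annotated to Csf1r or Lgr4, and the probe for Tnfsf10, another ligand of osteoprotegerin, was detected on 0 arrays.

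Of 14 tested osteoclast-inhibitory factors, osteoprotegerin included, 2 were higher and 5 lower at 0g in untreated Pthrp+/+ TOs (median -0.22) and 5 higher and 6 lower in Pthrp-/- TOs at 1g (median -0.26, or -0.01 at the bound). Both counts of higher genes lay close to the shares of all genes (13.0% for gravity and 30.5% for genotype). The 5 lower calls at 0g were 3 without replicate 2 of untreated Pthrp+/+ TOs at 0g or at 1g. The other higher gene at 0g was Wnt4, a Wnt ligand, at least 1.77-fold higher. The 5 higher calls in Pthrp-/- TOs included Wnt4, which was undetected on all 4 arrays of that comparison, and fell to 2 under cyclic loess scaling or with the authors' values and to 2 or 3 without any 1 array of untreated Pthrp-/- or Pthrp+/+ TOs at 1g. Those that passed in both comparisons and had the largest changes besides osteoprotegerin were all lower: Sfrp1, a Wnt inhibitor, had -1.59 and -4.59, Ebi3 had -1.28 and was at least 15.4-fold lower, and Irf8, a transcription factor of macrophages, had -0.47 and was at least 3.45-fold lower. In the small group of RANKL-releasing proteases and osteoprotegerin partners (10 tested), 3 were higher and 3 lower at 0g, and the 3 lower calls were 1 without either untreated Pthrp+/+ array at 1g; 3 were higher and 4 lower in Pthrp-/- TOs. Mmp3, a matrix protease, had -1.67 and -2.32, while Timp3, an inhibitor of metalloproteases, had 1.43 and 2.24, and PTHrP1-36 lowered Timp3 in Pthrp+/+ TOs at 0g by 0.89 (adjusted p = 0.00031). Sdc2 (0.59 and 0.99) and Sdc1 (0.83 and 0.48), cell-surface proteoglycans, were higher in both comparisons, the second probe of Sdc1 not passing.

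**Figure D3:**
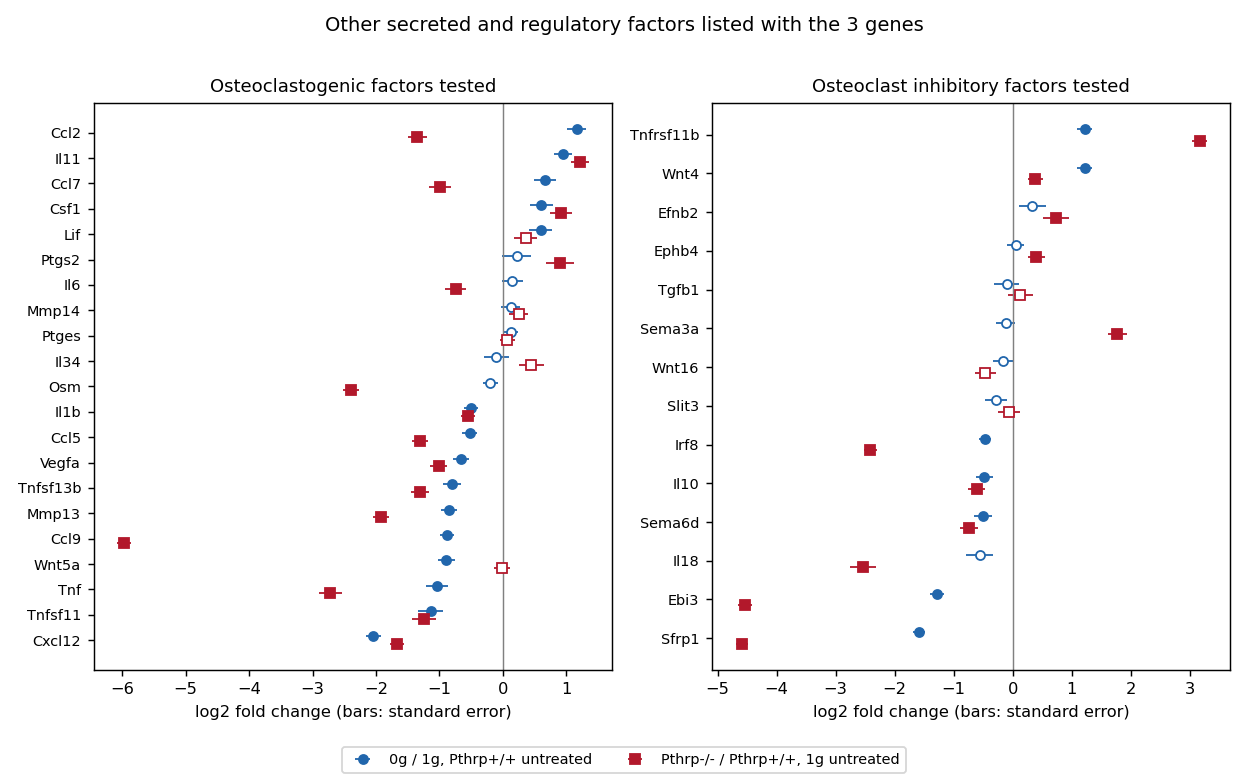
Log2 difference with its SE of 21 tested osteoclastogenic and 14 tested osteoclast-inhibitory factors, 0g minus 1g in untreated Pthrp+/+ TOs (blue circles) and Pthrp-/- minus Pthrp+/+ in untreated TOs at 1g (red squares); filled symbols passed at adjusted p under 0.05 and genes that were not detected are drawn at their fitted value. Tnfrsf11b is higher in both comparisons, and Cxcl12, Ccl9 and Sfrp1 are lower in both.

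Among the receptors and signalling genes of osteoclast precursors (21 tested), 0 were higher and 10 lower at 0g, and 1 was higher and 13 lower in Pthrp-/- TOs (median -0.71). The 10 lower calls at 0g were 6 without replicate 2 of untreated Pthrp+/+ TOs at 1g. Tnfrsf11a, which encodes RANK, had -1.21 at 0g (adjusted p = 6.0e-05), was at least 7.40-fold lower in Pthrp-/- TOs (adjusted p = 4.5e-10), and rose by 0.72 with PTHrP1-36 in Pthrp+/+ TOs at 0g (adjusted p = 0.0125). It was detected on 10 of 16 arrays. With PTHrP1-36 4 genes of this list were higher and 1 lower, and the 4 were 1 without either treated array and 2 without replicate 1 of the untreated arrays. Fcer1g (-1.0 at 0g, at least 354-fold lower in Pthrp-/- TOs), Tyrobp (-0.76, at least 55-fold lower), Trem2 (-0.61 and -6.61) and Sirpb1a (-2.18, at least 20.8-fold lower), all of signalling in myeloid cells, moved the same way. The macrophage markers did so as well, with 0 higher and 20 lower of 22 at 0g (median -1.02) and 22 of 22 lower in Pthrp-/- TOs (median -5.00, or -4.75 at the bound), and 11 higher with PTHrP1-36 in Pthrp+/+ TOs at 0g, a count of 3 or 4 without replicate 1 or 2 of the treated arrays and 5 without replicate 1 of the untreated arrays. Mrc1, the mannose receptor (-2.36 at 0g, at least 72.3-fold lower in Pthrp-/- TOs), and Adgre1, a macrophage surface receptor (-1.36, at least 125-fold lower), are examples. Mmp9, an osteoclast and macrophage protease, had -2.07 for gravity and, for genotype, at least a 4.87-fold lower level. Of the 14 osteoclast effectors on the array, Calcr, Atp6v0d2, Car2, Dcstamp and Ocstamp were undetected on every array, but 7 or 8 were detected on both arrays of each condition. Ctsk was detected on every array and was higher in Pthrp-/- TOs in all 4 genotype comparisons (0.26 to 0.54, adjusted p 0.000900 to 0.0382). Of 9 tested osteoclast effectors, 0 were higher and 2 lower at 0g, and 4 higher and 4 lower in Pthrp-/- TOs. Leaving out any array other than those of untreated TOs at 0g and of treated Pthrp-/- TOs at 1g left 1 of the 2 lower calls and 0 to 2 of the 4 higher calls, and cyclic loess left 0 of the 4.

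Among 28 tested genes known to regulate RANKL and osteoprotegerin in osteoblasts, 0 were higher and 4 lower at 0g (13.0% and 13.4% of all genes). In Pthrp-/- TOs at 1g 4 were higher and 10 lower (30.5% and 22.0% of all genes). The count of lower genes at 0g lay close to the share of all genes. The 4 lower calls were 2 without replicate 2 of untreated Pthrp+/+ TOs at 0g. Il6st, a shared receptor subunit of the interleukin-6 family, had -0.89 and -1.34, and Tlr2, a receptor for bacterial lipopeptides, had -0.68 and -1.26. Pth1r did not pass in either comparison (-0.21 and 0.20), and its 3 probes differed in sign. Vdr, the vitamin D receptor, did not pass for gravity (-0.43, adjusted p = 0.173), although 1 of its 3 probes did (-0.43, adjusted p = 0.0488), and had -2.11 in Pthrp-/- TOs (adjusted p = 2.0e-06). Of 12 tested osteoblast markers, 1 was higher and 5 lower at 0g and 1 higher and 9 lower in Pthrp-/- TOs at 1g, among them Alpl, alkaline phosphatase, with -1.09 and -1.83, Col1a2, a collagen chain of bone matrix, with -0.95 and -1.16, and Ibsp, a bone matrix protein, with -1.56 and at least 2.50-fold lower. The 5 lower calls for gravity were 3 when detection on 8 arrays was required. Between genotypes at 0g, 2 were higher and 2 lower in untreated cells (32.3% of all genes passed). In treated cells 1 was higher and 6 lower (33.8% of all genes passed). For untreated cells at 0g the genotype difference was -0.68 for Alpl (adjusted p = 0.0352) and 0.39 for Col1a2 (adjusted p = 0.0707).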

How the data were processed

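Total RNA of 16 TO cultures was amplified, labelled and measured on Illumina bead arrays (Mouse Ref-8 v2.0). The deposited table holds the non-normalised intensity and the detection p-value of each probe, and the authors' normalised values, made with lumi and deposited in log2, were used only as an alternative. The scanner software is not given in the sources used here.

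Intensities were corrected, quantile-normalised and log2-transformed with limma 3.58.1 (R 4.3.3; neqc with the detection p-values, offset 16). A single limma fit over the 8 condition means (8 residual degrees of freedom) gave 12 contrasts and 6 interactions, with Benjamini-Hochberg adjustment over all 15279 probes in each. A gene was represented by its tested probe of highest mean. Where a probe was undetected on both arrays of a group, a fold was bounded by that group's detection limit. The pipeline was tested on simulated data.

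Probes were named through RefSeq (23978 of 25697; 1719 without a symbol). Figures used Python 3.11.15 and matplotlib 3.10.9, and tables pandas 2.3.3. The number of arrays limits the precision. The members and gene lists were chosen with earlier results of these data known. Named genes were the members, up to 4 genes per list that passed in both the untreated Pthrp+/+ gravity and the untreated 1g genotype comparison with the largest mean absolute change, 7 receptors and ligands named whatever their values, and the 5 genes most like each member. A few genes outside this rule, such as Ccl2, Ccl7, Il11, Wnt4 and Ctsk, were named as well. Alternatives were no background correction, cyclic loess, the authors' values, testing without a filter or with detection on 8 arrays, the random variance model that the study's methods name, a variance trend with robust estimation, the replicate number as a block and each array left out.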

Additional observations from a re-analysis of the deposited data

Results flagged for a closer look

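Effects that differed between groups by the interaction test were those of osteoprotegerin with gravity by genotype (Pthrp-/- minus Pthrp+/+: -1.31, adjusted p = 0.000101, untreated; -0.66, adjusted p = 0.0244, treated) and of its response to PTHrP1-36 with gravity in Pthrp+/+ TOs (0g minus 1g: -0.96, adjusted p = 0.00921), and that of RANKL with gravity by genotype in treated cells (0.98, adjusted p = 0.0361). The gravity changes themselves were -0.09 in Pthrp-/- and 1.22 in Pthrp+/+ TOs for untreated osteoprotegerin, and -0.41 and 0.26 for treated. For treated RANKL they were -0.02 in Pthrp-/- and -1.0 in Pthrp+/+ TOs. Treated Pthrp-/- TOs at 1g read 4.90 and 5.12 for RANKL, against detection limits of 4.89 and 4.93. A fall of the Pthrp+/+ size could not be measured from there, so the RANKL interaction does not show a different gravity effect. With the Pthrp-/- gravity labels exchanged, the interaction of treated osteoprotegerin changed sign (0.15) and that of treated RANKL did not pass (1.02, adjusted p = 0.0542). Of the 4 interactions, all but that of untreated osteoprotegerin also missed the threshold when certain single arrays were left out (adjusted p up to 0.104 for treated osteoprotegerin by genotype, 0.0511 for its response to PTHrP1-36 and 0.140 for treated RANKL).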

How the results depend on the processing

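The higher osteoprotegerin and lower RANKL of untreated Pthrp+/+ TOs at 0g, the 4 genotype differences of osteoprotegerin, its fall with PTHrP1-36 in Pthrp+/+ TOs at 0g, its untreated genotype by gravity interaction, and the genotype differences of RANKL and Csf1 at 1g kept their direction and their side of the threshold under every alternative run. The gravity change of osteoprotegerin in untreated Pthrp+/+ TOs ran from 1.12 to 1.22 over the processing alternatives and from 1.05 to 1.39 with 1 array left out, and that of RANKL from -1.23 to -0.22, the smallest with the authors' normalised values, and from -1.31 to -0.97. The RANKL genotype differences at 1g were also smallest with the authors' values, at -0.24 in untreated and -0.30 in treated cells. RANKL differences that involve untreated Pthrp-/- TOs at 0g are of measured values below detection. The cause of the changes below was not tested.

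Without background correction the osteoprotegerin gravity difference in treated Pthrp-/- TOs (-0.41), the untreated RANKL genotype by gravity interaction (0.48) and the Csf1 gravity difference in treated Pthrp+/+ TOs (0.60) passed, and the untreated RANKL genotype difference at 0g (-0.29) did not. With cyclic loess that RANKL difference (-0.48) did not pass and the interaction (0.94) did, and in treated Pthrp-/- TOs the gravity differences of RANKL (0.058) and Csf1 (0.0044) changed sign. With the authors' values the osteoprotegerin difference (-0.42) and the RANKL interaction (0.16) passed, the RANKL genotype differences at 0g (-0.075 untreated, -0.083 treated) did not, and the Csf1 gravity difference in treated Pthrp-/- TOs (0.0015) and treatment difference in Pthrp+/+ TOs at 1g (-0.0044) changed sign. With no filter the RANKL genotype differences at 0g (-0.55, -0.59) and the treated interaction (0.98) did not pass. With detection required on 8 arrays osteoprotegerin in treated Pthrp-/- TOs (-0.41) and Csf1 in treated Pthrp+/+ TOs (0.62) passed for gravity, as they did with a variance trend, where the osteoprotegerin treatment by genotype interaction at 0g (0.56) and the untreated Csf1 genotype difference at 0g (0.41) passed too. With the Pthrp-/- gravity labels exchanged the treated osteoprotegerin interaction was 0.15 and changed sign, the untreated RANKL genotype difference at 0g (-0.10) and treated interaction (1.02) did not pass, and the untreated RANKL interaction (1.59) passed. Exchanging was done after seeing the data.

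The replicate numbers did not pair the arrays (over 28 pairs of conditions r was -0.30 to 0.22, median 0.02). With the replicate number as a block the untreated RANKL genotype difference at 0g (-0.55, adjusted p = 0.0560) did not pass, and the block changed no other call of the 3 genes.

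Leaving out 1 array at a time gave these ranges for results that changed side or sign. For osteoprotegerin the treatment difference in Pthrp-/- TOs at 0g ran from -0.62 to -0.48, the treated gravity difference in Pthrp-/- TOs from -0.50 to -0.32, the treated genotype by gravity interaction from -0.76 to -0.57, the treatment by gravity interaction in Pthrp+/+ TOs from -1.14 to -0.79 and the treatment by genotype interaction at 0g from 0.39 to 0.74. For RANKL the gravity difference ran from -0.34 to 0.31 in treated Pthrp-/- and from -1.10 to -0.90 in treated Pthrp+/+ TOs, the genotype difference at 0g from -0.62 to -0.49 untreated and from -0.91 to -0.26 treated, the treatment difference from -0.13 to 0.52 in Pthrp-/- TOs at 0g and from -0.080 to 0.26 in Pthrp+/+ TOs at 1g, and the genotype by gravity interaction from 0.50 to 0.88 untreated and from 0.66 to 1.31 treated. For Csf1 the gravity difference ran from -0.11 to 0.31 (untreated) and -0.14 to 0.14 (treated) in Pthrp-/- and from 0.34 to 0.87 (untreated) and 0.57 to 0.68 (treated) in Pthrp+/+ TOs, the genotype difference at 0g from 0.15 to 0.68, the treatment difference from -0.42 to 0.0061 at 0g and -0.25 to 0.035 at 1g in Pthrp-/- TOs and from -0.22 to 0.31 at 0g and -0.093 to 0.15 at 1g in Pthrp+/+ TOs, and the untreated interaction from -0.77 to -0.24.

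Scaling moved the balance of calls over all probes. For genotype in untreated TOs at 1g, 4572 probes were higher and 3168 lower (median 0.12), against 3208 and 4016 with cyclic loess (median -0.01), and for gravity in untreated Pthrp+/+ TOs 1854 were higher and 1891 lower, against 1389 and 2264. Without background correction the osteoprotegerin minus RANKL change for gravity was 1.90 in untreated and 0.89 in treated Pthrp+/+ TOs, and for genotype at 1g it was 3.88 in untreated and 3.99 in treated cells. These and the authors' values for that measure were tried after seeing the data. Signal near background limits RANKL most.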
